A study of Homo sapiens with 2 samples.

Results

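The 10 genes described here are keratins of luminal and basal epithelium: KRT5, KRT7, KRT8, KRT10, KRT14, KRT15, KRT18, KRT19, KRT23 and KRT80. They were taken by gene symbol from a list of 10 names, and all 10 were found among the 26475 symbols of the deposited tables. The values come from RNA sequencing of 2 libraries of C4-2B ENZR, a human prostate cancer cell line made resistant to the antiandrogen drug enzalutamide. Both lines were kept in 20 µM enzalutamide and both went through lentiviral infection and antibiotic selection. The control library came from cells with a non-targeting short hairpin RNA, labelled WT, and the knockdown library from cells with 1 kind of hairpin directed at the coding sequence of NRP2, the gene of the co-receptor neuropilin-2. Each group holds 1 library, so nothing measures the spread between cultures, there are no p-values, and a difference is one between 2 libraries only.

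Keratins are the intermediate filament proteins of epithelial cells. A filament is built from pairs of 1 type I and 1 type II chain, so neither type makes a filament alone. In the prostate, luminal secretory cells carry KRT8 and KRT18, basal cells carry KRT5 and KRT14 together with the transcription factor TP63, and KRT19 is found in luminal cells and in cells with features between both layers. KRT7 is a type II keratin of ducts and other simple epithelia, and KRT15 is a type I keratin of basal cells. KRT10 is the type I keratin of the suprabasal epidermis, where it pairs with KRT1. KRT23 is a type I and KRT80 a type II keratin of several epithelia.

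On genes, 21052178 control reads and 22992304 knockdown reads were counted. Values are read counts per unit of library size, scaled by the TMM method and called CPM here, and 1 read is worth 0.0487 CPM in the control library, against 0.0472 CPM in the other. The targeted gene NRP2 had 20 control reads and 7 knockdown reads, which is 2.95-fold lower (95% counting interval 1.20 to 8.26). Of 14 luminal markers outside the keratins, 13 averaged at least 1 CPM. Of 14 basal markers outside the keratins, 8 reached that average, and the list summed to 186 (control) and 240 CPM (knockdown). The basal regulator TP63, also on this list, had 4 control reads and 0 knockdown reads. Defining markers of other cell types were few: the leukocyte gene PTPRC had 5 and 1 reads, and the fibroblast gene DCN had 0 in both. Summed over their lists, fibroblast markers stood at 46.7 and 36.8 CPM (COL1A1 alone at 41.5 and 32.5 CPM), leukocyte markers at 7.50 and 10.9 CPM, endothelial markers at 4.19 and 4.81 CPM and neuroendocrine markers at 3.94 and 3.07 CPM. An average of 1 CPM was reached by 3 of 6 fibroblast, 1 of 6 leukocyte, 1 of 5 endothelial and 2 of 6 neuroendocrine genes. Their part in the keratin values was not tested.

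The 6 type I members are KRT10, KRT14, KRT15, KRT18, KRT19 and KRT23, and the 4 type II members are KRT5, KRT7, KRT8 and KRT80. In the GENCODE annotation the type II genes lie on chromosome 12 and the type I genes on chromosome 17, except KRT18, which sits on chromosome 12 directly beside its partner KRT8. KRT80 and KRT7 are neighbours on chromosome 12, and KRT15 and KRT19 are neighbours on chromosome 17. The files give no coordinates, and their build, hg19, differs from that of this annotation, so no position is printed.

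Keratin genes are alike in sequence, and the members differ in how much of their transcripts they share with other genes. Of all 50-base windows of the KRT8 transcript, 39.7% occur in a transcript of another gene, with the pseudogene KRT8P3 alone holding 23.2%, and for KRT18 the share is 35.1%. These windows lie in 36 and 43 other genes, of which only 3 and 1 are listed in the deposited tables. For KRT14 the share is 23.8%, led by KRT16, which holds 11.2% of its windows. KRT19 shares 1.79% of its windows, and KRT10 and KRT23 share 0. No source used here gives the read length or the treatment of reads with several matches, so on this measure KRT8, KRT18 and KRT14 are less certain than KRT19 and KRT10. The KRT8 and KRT18 gene models also overlap by 525 exon bases on opposite strands, and KRT10 overlaps TMEM99 by 56. Whether counting used the strand is not given, so reads in these overlaps cannot be told apart.

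Keratin RNA in these cells was almost wholly that of the luminal pair, and of the 5 members with enough reads to compare, KRT19 differed most between the libraries. KRT8 and KRT18 together took 93.6% of the reads of all 10 members in the control (95% Clopper-Pearson interval 93.2 to 93.9) and 93.1% in the knockdown (92.8 to 93.4). KRT19 was 2.40-fold higher in the knockdown library. KRT8 was 1.35-fold higher, KRT18 1.14-fold and KRT10 1.11-fold. KRT80 was 1.96-fold lower on few reads, and the basal keratins had between 0 and 11 reads each. The intervals describe counting error alone: PCR reads with no molecular identifiers do not stand for independent molecules, and each group has 1 library. In bulk RNA, a change in the share of cells that express a gene and a change in RNA per cell cannot be told apart.

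**Figure D1:**
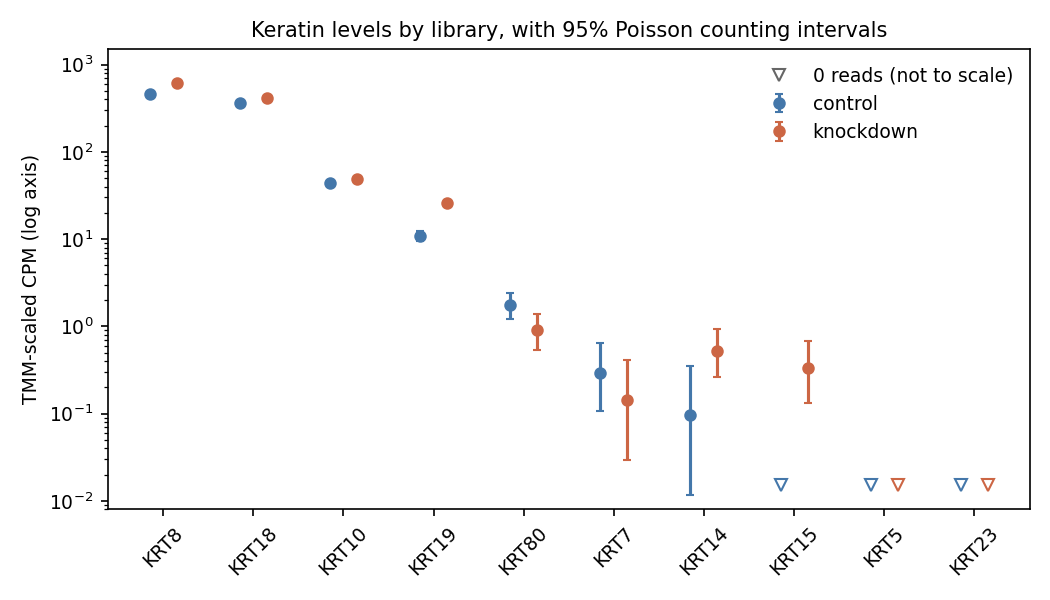
Level of each keratin in the control and the knockdown library, in TMM-scaled CPM on a log axis, with bars for 95% Poisson counting intervals; triangles mark 0 reads and are not placed to scale. KRT8 and KRT18 stand near the top at 367.5 to 616 CPM, and KRT7, KRT14, KRT15, KRT5 and KRT23 stay under 1 CPM in both libraries.

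Genes whose average of the 2 libraries reached 1 CPM were compared. Those past 1.5-fold in log2((knockdown CPM + 1)/(control CPM + 1)) were called higher or lower, a scale that understates differences of low genes. Of the 10 members, 5 were compared: KRT8, KRT18, KRT19, KRT10 and KRT80. KRT19 was counted as higher, 0 members as lower, and 4 lay between. Over all 13316 genes compared, 5.78% were higher and 3.57% lower by this rule, and the count of 1 among 5 members rests on a single gene. KRT19 also passed 2-fold, which 1.46% of all compared genes did on the high side. The median log2 change over all 10 members, with the 5 low ones included, was 0.17, and it was 0.03 over all compared genes. These 2 sets are unlike, since 5 members fall under the 1 CPM filter and 2 of those had 0 reads in both libraries.

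KRT8, the type II chain of the luminal pair, stood at 457 CPM on 9390 reads in control cells and at 616 CPM on 13051 reads in knockdown cells. The ratio was 1.35 (1.31 to 1.38), a log2 change of 0.43. Of all compared genes, 9.91% had a log2 change as high or higher. Adding KRT8P41, the listed KRT8 pseudogene with 0 and 7 reads, left the ratio at 1.35, which so few reads could hardly have moved. KRT8P3, the pseudogene that shares most with KRT8, is not listed, so its part was not tested.

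KRT18, the type I partner of KRT8, stood at 367.5 CPM on 7549 control reads and at 419.5 CPM on 8895 knockdown reads. The ratio was 1.14 (1.11 to 1.18), a log2 change of 0.19, and 27.0% of compared genes were as high or higher. With its listed pseudogene KRT18P55, which had 3 and 0 reads, the ratio was also 1.14, and so few reads could hardly have moved it. Both chains of the pair were thus higher in the knockdown library, KRT8 by more than KRT18. Their ratio to each other does not depend on how the libraries are scaled: relative to KRT18, KRT8 was 1.18-fold higher in the knockdown than in the control (1.13 to 1.23).

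KRT19, a short type I chain that lacks the usual tail domain, stood at 10.9 CPM on 223 control reads and at 26.0 CPM on 552 knockdown reads. The ratio was 2.40 (2.05 to 2.81) and the log2 change 1.19 (0.98 to 1.40). Only 103 of the 13316 compared genes, 0.774%, had a log2 change this high or higher. Within the keratins, KRT19 was 1.78-fold higher relative to KRT8 (1.52 to 2.09) and 2.10-fold higher relative to KRT18 (1.79 to 2.47), again without any scaling. It took 2.57% of the type I member reads in control and 5.26% in knockdown cells, while KRT18 took 87.1% and 84.8%. KRT15, its chromosomal neighbour, had 0 and 7 reads.

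KRT10, the third most abundant member, stood at 43.7 CPM on 898 control reads and at 48.5 CPM on 1029 knockdown reads. The ratio was 1.11 (1.01 to 1.22). With both libraries set to equal totals, an alternative chosen after seeing the data, the ratio was 1.05 (0.958 to 1.15), an interval that includes no difference. Relative to KRT18, KRT10 did not differ beyond counting error, at 0.972 (0.884 to 1.07). KRT10 was lower relative to KRT8 in the knockdown library, at 0.824, with a counting interval that ended at 0.906 and excluded no difference. Its epidermal partner KRT1 had 0 reads in both libraries, so that partner was not detectable; 0 reads allow up to 3 reads, or 0.146 CPM in control and 0.141 CPM in knockdown cells. TMEM99, the overlapping gene, was at 32.0 and 32.4 CPM.

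KRT80 was the only compared member with a lower value in the knockdown library. It stood at 1.75 CPM on 36 control reads and at 0.896 CPM on 19 knockdown reads, 1.96-fold lower (1.09 to 3.61). Its log2 change of -0.54 stayed inside the 1.5-fold bound with 1 CPM added and passed it, at -0.81, with 0.25 CPM added. KRT7, its chromosomal neighbour, had 6 control reads and 3 knockdown reads, and its ratio of 0.484 had an interval from 0.0784 to 2.27 that includes no difference.

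**Figure D2:**
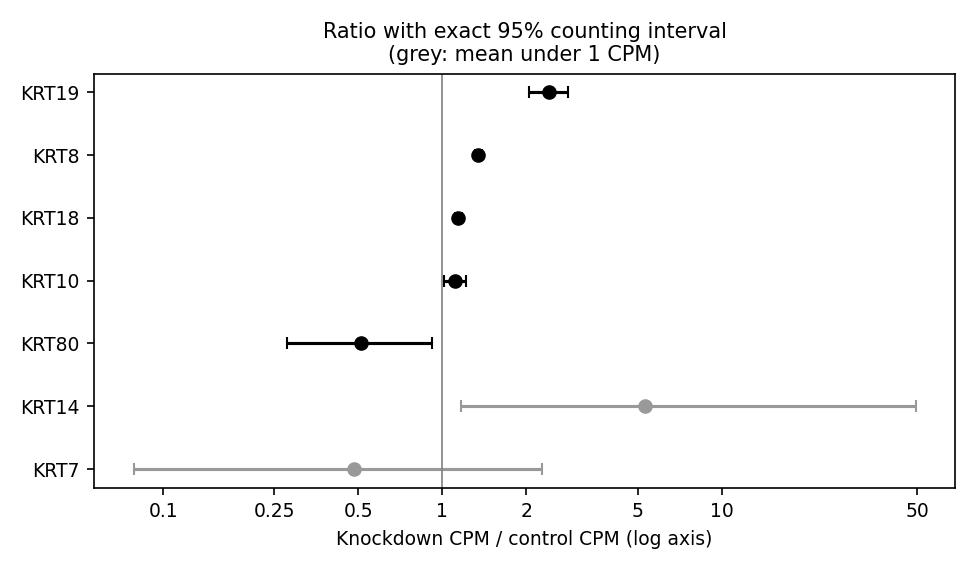
Ratio of knockdown to control CPM on a log axis with the exact conditional binomial 95% interval for the 7 members with reads in both libraries; grey marks a mean under 1 CPM. KRT19 stands at 2.40 and KRT8, KRT18 and KRT10 between 1.11 and 1.35, while the intervals of KRT14 and KRT7 are wide because few reads lie behind them.

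The basal keratins were at or near 0. KRT5, the defining type II keratin of prostate basal cells, had 0 reads in both libraries, under the same limits as for KRT1. KRT14, the type I partner of KRT5, had 2 control reads and 11 knockdown reads (0.0974 and 0.519 CPM), a ratio of 5.33 with an interval from 1.16 to 49.5. KRT15 had 0 control reads and 7 knockdown reads (0.330 CPM), at least 2.26-fold higher with the control set to its limit of 3 reads and the 7 reads taken as exact. With counting error on both sides, the interval of that ratio starts at 1.40. Summed, KRT5, KRT14 and KRT15 had 2 control reads and 18 knockdown reads, a ratio of 8.72 (2.09 to 77.5). KRT14 together with the listed genes that share its sequence (KRT16, KRT17, KRT16P1, KRT16P2 and KRT16P3) had 4 and 21 reads. The 3 basal keratins were thus each under 1 CPM in both libraries, and the defining basal markers KRT5 and TP63 were at or near 0. KRT23 had 0 reads in both libraries.

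By the exclusion of no difference from the counting interval, KRT8, KRT18, KRT19 and KRT10 were higher and KRT80 lower, 4 and 1 of the 5 compared members. At this depth that rule is passed by many genes: 32.7% of all compared genes were higher and 24.0% lower. Passing it was therefore common in this pair of libraries.

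**Figure D3:**
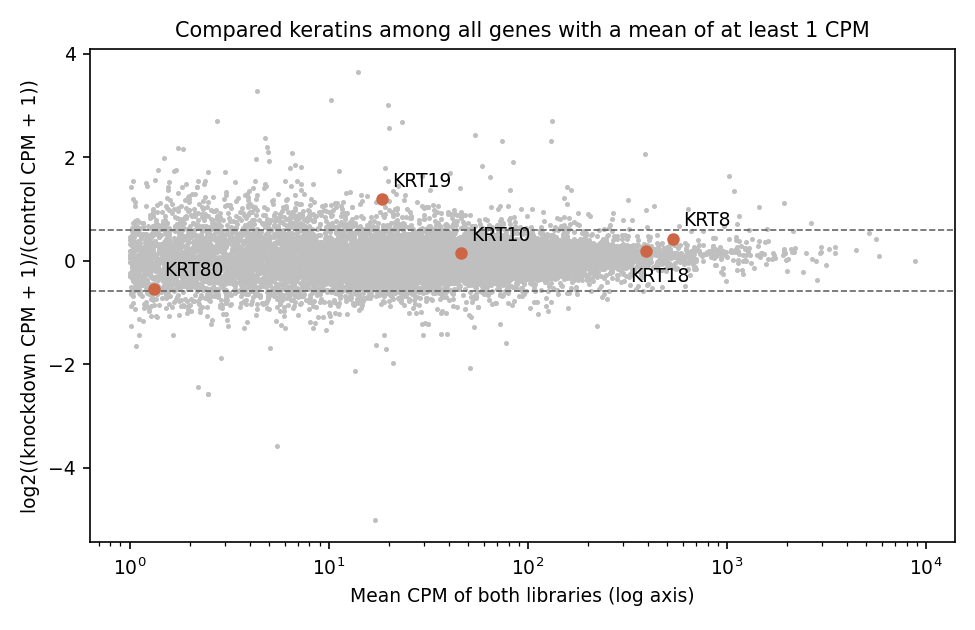
Log2 change against the mean CPM of both libraries (log axis) for the 13316 compared genes in grey, with the 5 compared keratins in colour and dashed lines at 1.5-fold. KRT19 lies above the upper line, and KRT8, KRT18, KRT10 and KRT80 lie between the lines.

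Levels of different genes were compared per kb of transcript. In the control library KRT8 stood at 260.5 CPM per kb and KRT18 at 258.8 CPM per kb, a ratio of 1.01 (0.976 to 1.04), so these neighbours in the order did not differ beyond counting error. In the knockdown library they stood at 351 and 295 CPM per kb, a ratio of 1.19 (1.16 to 1.22). The control ratio depends on the length used: per kb of coding sequence it was 1.11 in the control and 1.31 in the knockdown. KRT10 followed at 20.6 and 22.8 CPM per kb in the control and the knockdown, and KRT19 at 7.81 and 18.7 CPM per kb. KRT10 was 2.64-fold above KRT19 per kb in the control (2.27 to 3.07) and 1.22-fold above it in the knockdown (1.10 to 1.36). Below KRT19 lay KRT80 at 0.454 and 0.232 CPM per kb. In the control library KRT80 was 2.73-fold above KRT7 per kb (1.14 to 7.92), and KRT7 and KRT14 were not resolved (ratio 2.84, 0.508 to 28.8). In the knockdown library the order of KRT14, KRT80, KRT15 and KRT7 was not resolved, since the interval of each ratio between neighbours included 1.

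Through KRT8, type II chains held a larger share of member reads in the knockdown library. Type II members took 52.1% of member reads in the control (51.4 to 52.8) and 55.5% in the knockdown (54.8 to 56.1). Summed per kb of transcript, type II RNA was 0.909 times type I RNA in the control and 1.04 times in the knockdown. Per kb of coding sequence these ratios were 0.994 and 1.13. With either length the ratio was thus higher in the knockdown than in the control. These ratios have no counting interval, and the control ratio by coding length lay close to 1, so which type was higher there was not resolved. Almost all type II reads were those of KRT8, with 9390 of 9432 in the control and 13051 of 13073 in the knockdown, and the other type II members with reads, KRT80 and KRT7, had fewer reads in the knockdown library. All 10 members together took 0.0860% of the reads on genes in the control and 0.103% in the knockdown.

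Other keratins added little. Of 45 further keratin symbols listed, 31 had 0 reads in both libraries and 9 had between 1 and 5 reads in all. KRT6C, a type II keratin of stressed and stratified epithelia, was the only one to reach an average of 1 CPM, with 1.02 CPM on 21 control reads and 1.46 CPM on 31 knockdown reads, and its interval included no difference (ratio 1.43, 0.796 to 2.62). It shares 53.6% of its windows with other genes, its near copies KRT6A and KRT6B among them, and the 3 together had 21 and 38 reads. The 17 hair keratins had 1 control read and 5 knockdown reads in all.

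Genes of desmosomes and keratin linkers, the proteins that anchor keratin filaments at cell junctions, were mostly level. Of 23 listed, 17 were compared, and 1 was higher, 0 lower and 16 between, with a median log2 change of 0.11. Of these 17, 12 had a positive and 5 a negative log2 change. Over all compared genes, 5.78% were higher and 3.57% lower, with a median of 0.03. EPPK1, epiplakin, a plakin that binds keratin bundles, stood at 22.9 CPM in control and 41.2 CPM in knockdown cells, 1.80-fold higher (1.61 to 2.02). Desmoplakin (DSP), which ties keratins to the desmosome, was at 205 and 228 CPM, a ratio of 1.11 (1.07 to 1.16). Plectin (PLEC), a cytolinker, was at 432 and 467 CPM, a ratio of 1.08 (1.05 to 1.11). Plakoglobin (JUP), a catenin shared by desmosomes and adherens junctions, was at 629 and 726 CPM, a ratio of 1.15 (1.13 to 1.18). The lowest of the 17, TCHP, was at 35.9 and 28.1 CPM, a ratio of 0.783 (0.702 to 0.874).

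Among 16 other intermediate filament genes, 8 were compared, with 1 higher, 0 lower and a median log2 change of 0.01. Of these 8, 4 had a positive and 4 a negative log2 change. The shares over all compared genes were 5.78% higher and 3.57% lower, with a median of 0.03. VIM, vimentin, stayed just under the 1.5-fold bound at 39.4 and 58.8 CPM, a ratio of 1.49 (1.36 to 1.63). SYNC, syncoilin, an intermediate filament protein known from muscle, was at 0.633 and 2.12 CPM on 13 and 45 reads, 3.35-fold higher (1.78 to 6.78). Of 19 epithelial transcription factors, 16 were compared, with 1 higher, 0 lower and a median of 0.10. Of these 16, 11 had a positive and 5 a negative log2 change. EHF stayed just under the 1.5-fold bound at 605 and 903 CPM, a ratio of 1.49 (1.46 to 1.53). ELF5, an ETS factor of glandular epithelium, was at 6.62 and 13.6 CPM, 2.05-fold higher (1.67 to 2.53). GRHL2, a regulator of epithelial junction genes, was at 170 and 189 CPM and KLF5, a Krüppel-like factor of basal and luminal epithelium, at 6.72 and 6.98 CPM. The lowest of the 16, OVOL2, was at 19.8 and 15.6 CPM, a ratio of 0.787 (0.679 to 0.913).

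Markers outside the keratins did not follow 1 pattern by layer. Of all compared genes, 5.78% were higher and 3.57% lower, and the median log2 change was 0.03. Of 13 luminal markers compared, 3 were higher (the secretory or membrane proteases KLK2, KLK3 and TMPRSS2) and 1 was lower, the surface protein CD24, at 44.9 CPM in control and 28.9 CPM in knockdown cells. Of these 13 luminal markers, 8 had a positive and 5 a negative log2 change, and the median was 0.16. FOXA1 stayed just inside the 1.5-fold bound on the low side, at 453 and 302 CPM, a ratio of 0.667 (0.646 to 0.689). CDH1 stayed just inside it on the high side, at 529 and 788 CPM, a ratio of 1.49 (1.45 to 1.53). Of 8 basal markers compared, 3 were higher and 0 lower by the 1.5-fold rule, with a median of 0.15. The higher ones were the growth factor receptor EGFR, the tripartite motif protein TRIM29 at 5.65 and 9.53 CPM, and the membrane protein CAV1. Of these 8 basal markers, 4 had a positive and 4 a negative log2 change. Among the negative ones, ITGB4 had a ratio of 0.717 (0.634 to 0.811), BCAM 0.744 (0.635 to 0.872) and LAMA3 0.831 (0.745 to 0.926). Of 11 squamous differentiation markers 3 were compared, and TGM1, the transglutaminase of the cornified envelope, had 44 control reads and 106 knockdown reads, 2.33-fold higher (1.63 to 3.40). Involucrin (IVL) was at 1.27 and 2.08 CPM on 26 and 44 reads, with an interval that included no difference (0.987 to 2.77).

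**Figure D4:**
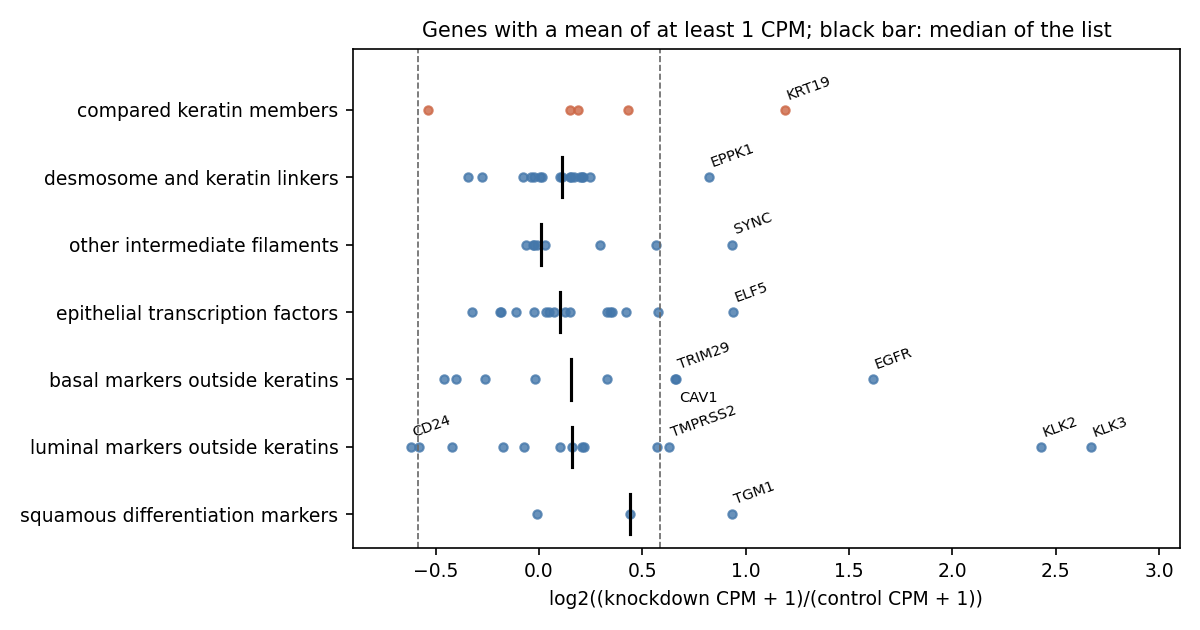
Log2 change of each compared gene, for the 5 compared keratins and 6 gene lists; the black bar is the median of a list and dashed lines mark 1.5-fold. Linkers run from -0.34 to 0.82, other filaments from -0.06 to 0.94 and epithelial factors from -0.33 to 0.94, with 1 gene each above the upper line. Luminal and basal markers spread to both sides.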

How the data were processed

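RNA of 1 control and 1 NRP2 knockdown library of C4-2B ENZR cells was sequenced. The deposited signal is a TMM-scaled read number per gene symbol, per the labels of the tables. The submitters' processing notes name hg19 and, among tools, edgeR, RSEM 1.2.15, Bowtie2 2.1.0 and bcl2fastq 2.17. No source used here gives the role of each tool, the annotation or the strand setting. The values are whole multiples of 1 read for 100% of symbols (tolerance 0.01 read), so whole reads were recovered. The columns sum to 1024940 and 1084410, more than plain CPM would, which the design had assumed. Of the 26475 symbols, 28 had been turned into dates and were left out (0.181% and 0.184% of reads), which leaves 26447.

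Ratios have exact conditional binomial 95% intervals (SciPy 1.17.1, Python 3.11.15). Genes averaging at least 1 CPM were compared on log2(CPM + 1). No count model was run, since each group has 1 library. Lengths and shared 50-base windows come from GENCODE release 29, on another build, matched by symbol. The transcript of a gene was the principal one with the longest coding sequence. The calculation was tested on simulated data. Named were all members, other keratins averaging at least 1 CPM, list genes past 1.5-fold and a few textbook partners and regulators fixed by name. List genes just under 1.5-fold, and marker and sequence-sharing genes where a result touches them, were chosen after their values were seen. The lowest linker and the lowest epithelial factor were also chosen in this way. The members and lists were chosen with earlier results of these data known. No gene was ranked by likeness to a member, since there are 2 libraries. Some marker genes and sequences are not reported here. Alternatives were pseudocounts of 0.25 and 5 CPM, equal totals, a median ratio of 0, other filters, 2-fold, counting intervals, coding length, all keratins and added pseudogenes.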

Additional observations from a re-analysis of the deposited data

How the results depend on the processing

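No alternative turned the direction of KRT8, KRT18, KRT19, KRT10 or KRT80, and KRT19 was counted as higher under all 9 alternatives to the count. A pseudocount cannot turn a direction, and no filter used could drop KRT19, with a mean of 18.4 CPM. Of 65 alternative values, 18 moved outside the interval of the main value or beyond 1.5 times its count. With the counting interval as the rule, 4 members were higher and 1 lower; with equal library totals added, a choice made after seeing the data, 3 were higher (without KRT10) and 1 lower. A pseudocount of 0.25 CPM made 1 member, KRT80, lower, and one of 5 CPM put KRT19 at a log2 change of 0.97. Equal totals lower the knockdown library by 0.08 on the log2 scale: KRT8 then stood at a log2 change of 0.35 (ratio 1.27) and KRT18 at 0.11 (ratio 1.08, 1.05 to 1.11), and KRT19 had a ratio of 2.27. By coding length the ratio of KRT8 to KRT18 was 1.11 in the control and 1.31 in the knockdown. Over all fixed lists, 10 genes were higher and 1 lower, and at 2-fold these were 3 and 0. Without a filter they were 12 and 2, and with equal totals 9 and 2. The number of genes compared is given with each list above. Of all 13316 compared genes, 5.78% were higher and 3.57% lower at 1.5-fold, and 1.46% were higher at 2-fold. No paired analysis was possible because each group holds 1 library. Depth limits KRT5, KRT7, KRT14, KRT15 and KRT23, with 0 to 11 reads each, and the use of 1 library a group limits all values.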

Other observations

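Some genes of stratified and basal epithelium with a mean under 1 CPM, singled out after their values were seen, had more reads in the knockdown library. DSC3, a desmosomal cadherin of basal and stratified epithelium, had 2 control reads and 14 knockdown reads, a ratio of 6.78 (1.56 to 61.5). COL17A1, a hemidesmosome collagen of basal cells, had 1 and 14 reads, a ratio of 13.6 (2.06 to 573), and KRT6B had 0 and 6 reads.

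Other low genes of the same kind, also singled out after their values were seen, went the other way or were level. KRT75, a type II keratin of hair follicles, had 17 control reads and 3 knockdown reads, 5.85-fold lower (1.69 to 31.2). KRT2, a type II keratin of the upper epidermis, had 7 and 1 reads, with an interval that included no difference (ratio 0.138, 0.00307 to 1.08). The small proline-rich gene SPRR1A had 13 and 4 reads, the basal surface protein CD44 had 4 and 7, and the basal receptor NGFR 5 and 4.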
